A study of Solanum lycopersicum with 6 samples.

Results

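CHH losses at gene 3' ends are stretches of tomato DNA at or just past the end of a gene in which embryos without SlNRPD1 had less CHH methylation than wild-type embryos. They were selected on the authors' mean CHH levels per genotype and on their annotation, as the CHH regions with a lower mean in the knockout and an annotation of 3' UTR (the transcribed but untranslated end of a gene) or Downstream (starting within 300 bp past the gene). There were 2037 such regions, 701 annotated as 3' UTR and 1336 as Downstream, out of 73614 CHH losses, 76805 listed CHH regions and 132092 listed regions in the 3 sequence contexts. Bisulfite libraries were made from embryos of the dwarf cultivar Micro-Tom taken 21 days after flowering, 3 from wild-type plants and 3 from plants labelled as SlNRPD1 knockout, called nrpd1 here, and both groups were grown under the same conditions. Neither the lesion in SlNRPD1 nor the number of independent mutant lines is given in the sources used here. The authors' table holds 1 mean level per genotype for each region and no value for a single library, and the read depth is unknown. Spread between libraries could therefore not be measured, no test between samples could be made, and the values below describe called regions, in which the fall itself chose the members.

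In plants, small interfering RNAs guide methylation to matching DNA, and RNA polymerase IV, whose largest subunit is NRPD1, makes the transcripts from which those RNAs are cut. CHH sites, where H is A, C or T, are asymmetric and have to be methylated anew after each replication, partly along this route, whereas CG and CHG sites are symmetric and have maintenance enzymes of their own. In maize, narrow islands of CHH methylation are known close to genes, at both their starts and their ends. The 3' end of a gene holds the signals for cleavage and polyadenylation of its transcript, and the sequence past it leads into the intergenic space, which in plants is rich in transposable elements.

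The annotation was checked against the gene models in the tables, and it covered mainly the 3' ends of plus-strand genes. A 3' UTR region was matched to a named gene overlapping it, and a Downstream region to a gene ending up to 300 bp before it. Such a gene was found among the 27473 genes named in the 3 tables for 1978 of the 2037 regions (97.1%). For 1932 of these that gene lay on the plus strand. A match by overlap does not show that a 3' UTR region lies at the end of that gene. Among all CHH losses that started 1 to 300 bp past the end of a named gene, 1765 lay at plus-strand genes and 1772 at minus-strand genes, so the losses themselves were split evenly. Of the losses past plus-strand ends, 1294 were annotated as Downstream and 0 as distal intergenic. Past minus-strand ends, 75 were annotated as Downstream and 1198 as distal intergenic. Losses lying across a gene end showed the same split, with 592 called 3' UTR at plus-strand and 44 at minus-strand genes, against 157 and 600 called exonic. Other losses at gene ends carried a promoter annotation and so lie outside the members. Those annotated as promoter within 1 kb numbered 309 past and 249 across plus-strand ends, and 347 and 272 at minus-strand ends. With 1 gene taken per member, plus-strand first, 1916 of 13732 plus-strand genes (13.95%) were matched to a member. The same count gave 44 of 13741 minus-strand genes (0.320%). Minus-strand genes at the 86 members with genes on both strands were not counted there, so this share is a lower limit. Any CHH loss lay at the 3' end of 20.6% (95% Wilson interval 19.9 to 21.3) of plus-strand and 20.3% (19.6 to 20.96) of minus-strand genes. The cause of the split by strand was not tested. The 1798 losses at minus-strand ends that the authors' annotation calls distal or exonic lie outside the members, and they are set beside the members below as losses of the same geometry. They too were called as losses, so their fall in CHH is a description as well.

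**Figure D1:**
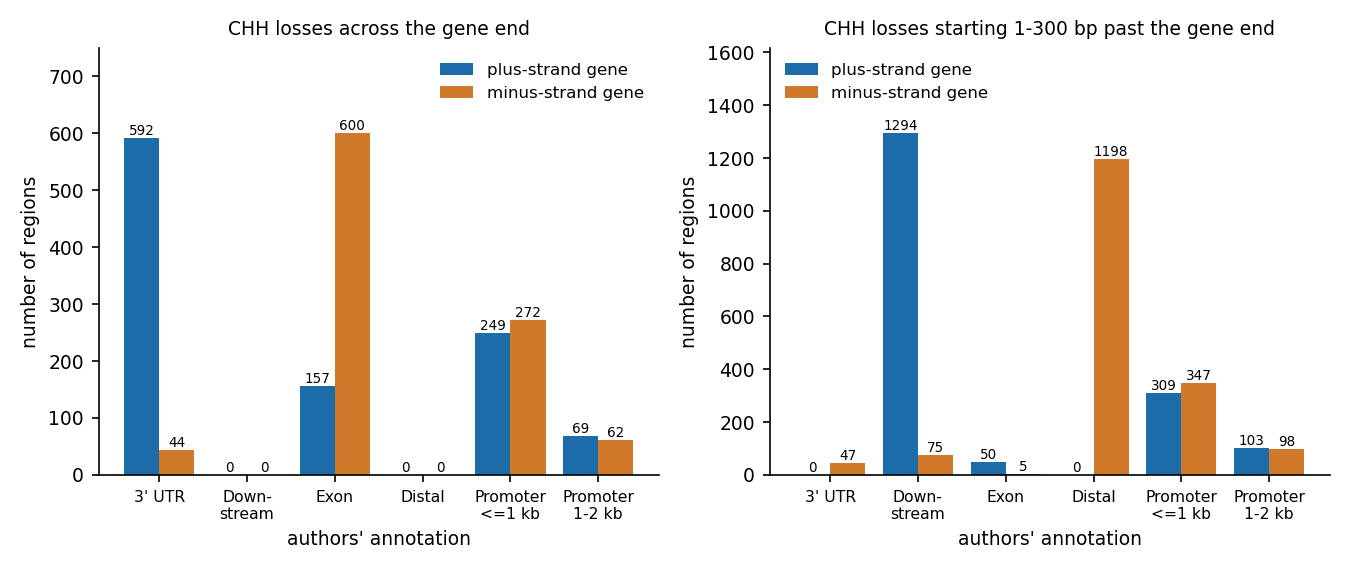
Number of CHH losses by the authors' annotation (horizontal axis) for losses lying across the end of a named gene (left) and losses starting 1 to 300 bp past it (right), with blue bars for plus-strand and orange bars for minus-strand genes. Downstream holds 1294 losses at plus-strand and 75 at minus-strand ends, while distal intergenic holds 0 and 1198.

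At these gene ends CHH methylation went from a median of 24.0% in wild type to 6.81% in nrpd1. The median region fell by 16.3 percentage points and was left with 29.0% of its wild-type level. Levels in wild type ran from 12.6% to 53.8%, with the middle 50% of regions between 18.9% and 30.7%, and levels in nrpd1 ran from 1.87% to 32.9%, with the middle 50% between 5.11% and 9.80%. Losses annotated as 3' UTR started from a median of 22.9% and ended at 6.44%, with 27.8% left, and those annotated as Downstream went from 24.4% to 7.16%, with 29.7% left. The fall in points was 16.3 in each class. A fall of at least 20 points was listed for 591 members (29.0%), against 25.5% of all CHH losses. Of the members, 143 (7.02%) kept less than 20% of their wild-type level, compared with 5.51% of all CHH losses, and 106 (5.20%) kept more than 50%, compared with 11.8%. In CHH losses annotated as promoter within 1 kb of a transcription start, these shares were 35.5%, 6.84% and 5.55%. In exonic losses they were 20.8%, 10.2% and 2.91%, and in distal intergenic losses within 5 kb of a start 26.5%, 5.40% and 12.5%. These shares rest on the contrast that chose the regions and are given as description. The exonic and distal sets also hold losses at minus-strand gene ends.

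**Figure D2:**
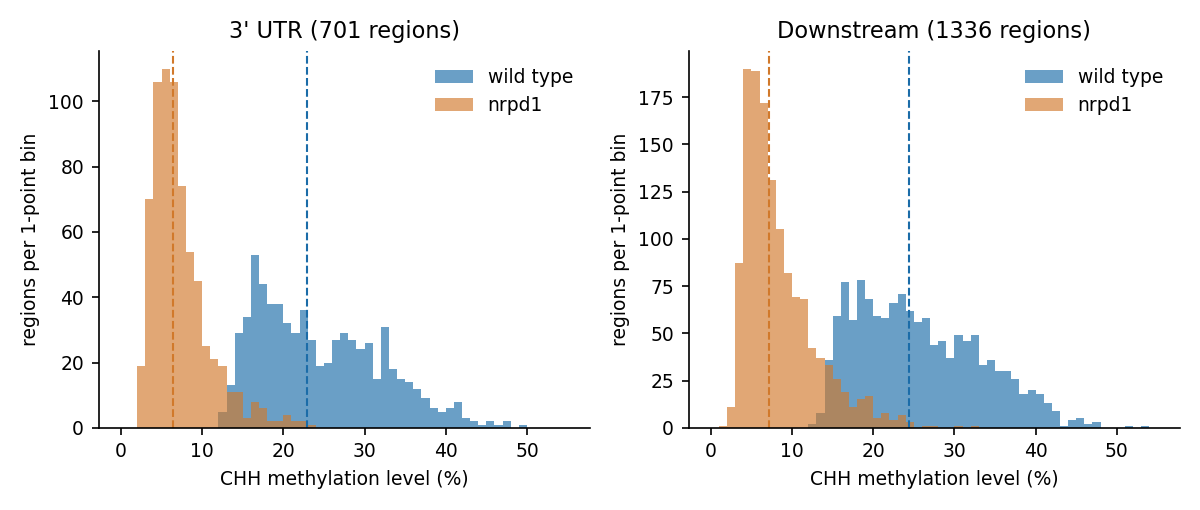
Distribution of the authors' mean CHH methylation level per region (horizontal axis, percent) in wild type (blue) and nrpd1 (orange), for 3' UTR losses (left) and Downstream losses (right). The vertical axis counts regions per 1-point bin and dashed lines are medians, 22.9% and 6.44% for 3' UTR and 24.4% and 7.16% for Downstream.

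The fall in points grew with the starting level, while the median share left differed less between groups of members by starting level. In the lowest 25% of members by wild-type level, the median went from 16.5% to 4.55%, leaving 27.8%, and in the highest 25% from 34.99% to 11.6%, leaving 32.5%. Across the 2037 regions Spearman's rho between the wild-type and nrpd1 levels was 0.81, and between the wild-type level and the share left it was 0.22. These are correlations across regions measured in the same libraries, and they carry no p. The smallest fall of any member was a change of -10.0015 points. A region with a low wild-type level could therefore be a member only if a small share of that level was left. The part of this limit in the values by group and in both correlations was not tested, so no dependence on the starting level is read from them. Width went with level as well (rho = 0.54 with the wild-type level): the median width was 475 bp in the lowest and 1000 bp in the highest of these groups. A region had a median width of 673 bp and 158 CHH cytosines, or 22.7 per 100 bp, and the members covered 1.80 Mb together.

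Most of the affected sequence lay outside the genes. Measured from the end of the gene found at each region, 3' UTR losses began a median of 108 bp inside the gene and ran to 528.5 bp beyond it, and 624 of 680 (91.8%) crossed the gene end while 56 lay within the gene. Of the bases in these 3' UTR losses, 80.9% lay past the gene end. Downstream losses began a median of 147.5 bp past the end, within the 300 bp that defines them, and ran to 833 bp. The outer edge lay at least 1 kb past the gene for 465 Downstream losses (35.8%) and 141 3' UTR losses (20.7%).

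The distances above follow in part from the annotation that chose the regions, so coverage was also counted for losses of any annotation. Over all 27473 named genes, such a loss covered the position 200 bp inside the gene end in 2.19%, the gene end itself in 7.60%, 300 bp past it in 19.4% and 800 bp past it in 24.3%, the highest value. Further back, at -1500 bp from the gene end, coverage was 11.004%, where genes shorter than that distance are counted too. Minus-strand genes peaked at 24.1% at 750 bp and plus-strand genes at 24.4% at 800 bp. At the other end of genes the coverage rose further, from 2.44% at 200 bp inside the gene start to 40.9% at 500 bp upstream. Only genes that the tables name could be counted, so the shares do not hold for all genes of the genome. Genes are named there because a listed region was assigned to them. This selection may also affect the comparison of gene starts with gene ends, which was not tested.

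**Figure D3:**
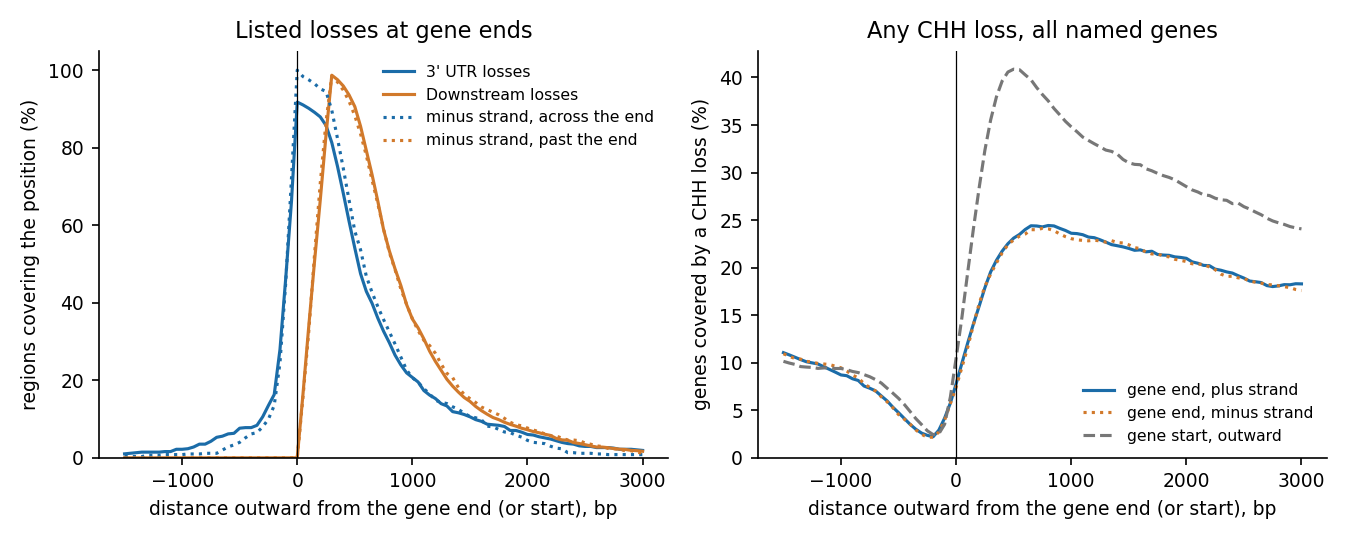
Left, the percentage of losses covering each position by distance from the gene end in bp (positive is past the gene), for 3' UTR and Downstream losses (solid) and for the losses of the same geometry at minus-strand ends (dotted). Right, the percentage of named genes covered by any CHH loss around the gene end on each strand and outward from the gene start (dashed), which reach 24.4%, 24.1% and 40.9%.

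CHG methylation was also listed as lost at many of these gene ends, and CG methylation at few. A listed CHG loss overlapped 912 of the 2037 members by at least 1 bp (44.8%, 95% Wilson interval 42.6 to 46.9), and a CG loss overlapped 107 (5.25%, 4.37 to 6.31). Over all CHH losses these shares were 35.4% and 5.32%, and over exonic CHH losses 50.4% and 7.40%. The 2512 exonic losses include 600 across minus-strand and 157 across plus-strand gene ends, so they are not a set apart from gene ends. Losses in all 3 contexts met at 82 members (4.03%, against 3.84% of all CHH losses), and 1100 members (54.0%) overlapped neither a CHG nor a CG loss, against 63.1% of all CHH losses. When the overlap had to cover 50% of the CHH loss, the shares were 18.0% for CHG and 0.393% for CG, against 13.5% and 0.720% of all CHH losses. Wilson intervals treat regions as independent and cover counting error only. The CHG losses beneath members went from a median of 66.4% in wild type to 32.5% in nrpd1, with 49.9% left, and covered a median of 40.9% of the member's width. The CG losses beneath members went from 83.1% to 56.2%, with 69.9% left, and covered 19.7%.

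Members with a CHG loss had fallen further in CHH. Their median went from 25.7% to 6.68%, leaving 26.9%, while the 1125 members without one went from 23.2% to 6.94%, leaving 31.9%. They were also wider, with 847 bp against 585 bp, and the part of width and of the wild-type level in this difference was not tested. In the narrowest of 5 width classes, up to 440 bp, a CHG loss overlapped 20% of 290 members (15.8 to 24.98), and in the widest, from 1127 bp, 66.1% of 443 (61.6 to 70.4). Of 842 CHG losses that the authors placed at 3' ends, 647 (76.8%) overlapped a CHH loss of any annotation and 517 (61.4%) a member, and 513 members (25.2%) overlapped one of them. Both lists were picked by the same annotation, so nothing is read from the share of members. Gains under members were rare. A CHG gain overlapped 2 members, both Downstream (0.0982%, against 0.162% of all CHH losses). A CG gain overlapped 19 (0.933%, against 0.554%), where CG methylation went from a median of 48.0% to 75.7% while CHH went from 23.3% to 6.28%.

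**Figure D4:**
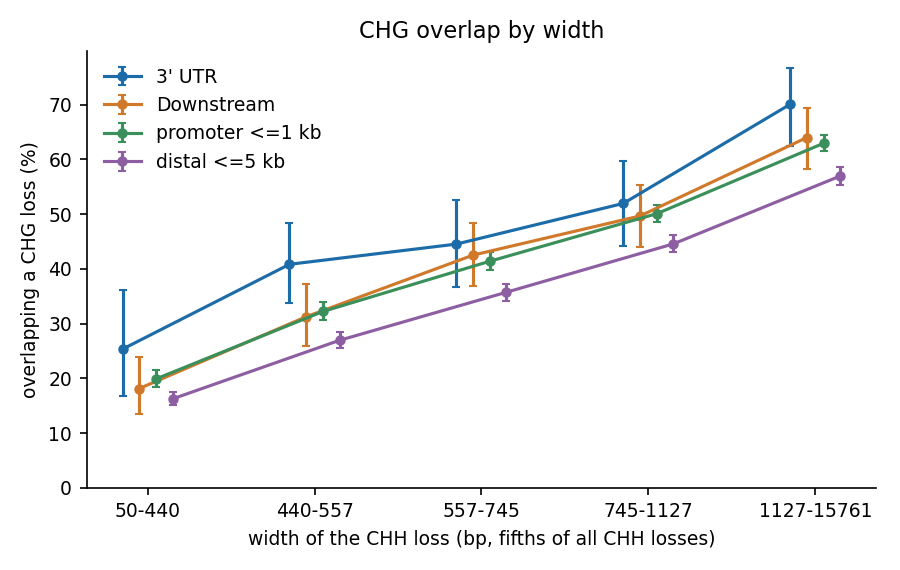
Percentage of CHH losses overlapping a listed CHG loss (vertical axis) by width of the CHH loss in bp (horizontal axis, 5 classes with about equal numbers of all CHH losses), with 95% Wilson intervals, for 3' UTR, Downstream, promoter and distal losses. The share of 3' UTR losses went from 25.3% in the narrowest to 70.1% in the widest class.

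The sets most like these gene ends are the losses in promoters, at the other end of the gene, and the intergenic losses near genes. The 17102 CHH losses annotated as promoter within 1 kb of a transcription start went from a median of 26.1% to 7.58%, and the 18931 distal intergenic losses within 5 kb of a start went from 25.5% to 8.03%. The distal set includes losses at minus-strand gene ends. Without those, the differences from distal losses given below became -3.02 points for the share left and 9.18 points for the CHG overlap. Wild-type levels at 3' ends were lower than in promoters, with a mean difference of -1.94 points (SD over 12 chromosomes 0.759), and lower than in distal losses, with -1.502 points (SD 0.700), each on 12 of 12 chromosomes. The share left, 29.0%, differed from the 31.9% of distal losses by -2.87 points, and it was lower on 12 of 12 chromosomes; among falls of at least 20 points the difference was -0.596 points. From the 29.5% of promoters it differed by -0.444 points, lower on 8 of 12, which is smaller than the SD over chromosomes of 0.776; it became 0.0350 points when the sets were matched on the wild-type level. A CHG loss was more frequent at 3' ends than in distal losses by 8.62 points, on 11 of 12 chromosomes, all but chromosome 9. From promoters it differed by 0.900 points, with 7 of 12 chromosomes higher and an SD of 4.28, and by -0.358 points in the upper 50% of regions by the authors' region statistic. A CG loss was less frequent at 3' ends than in promoters on 12 of 12 chromosomes, 5.25% against 7.65%. All chromosomes were read from the same 6 libraries, so these counts describe evenness along the genome and not variation between plants.

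Within the members, 3' UTR losses were left with less methylation than Downstream losses on 11 of 12 chromosomes, with a difference of -1.92 points over all regions, and overlapped a CHG loss more often on 11 of 12, in 48.9% (45.2 to 52.6) against 42.6% (39.96 to 45.3). The spread between chromosomes, with an SD of 2.04 points for the share left and of 9.81 points for the CHG overlap, was larger than either difference (-1.92 and 6.34 points). Chromosome 10 held the exception for both, with 32.0% left and a CHG overlap of 23.5% over its 51 3' UTR losses. When both classes were limited to falls of at least 20 points, the difference in CHG overlap became -0.0872 points.

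**Figure D5:**
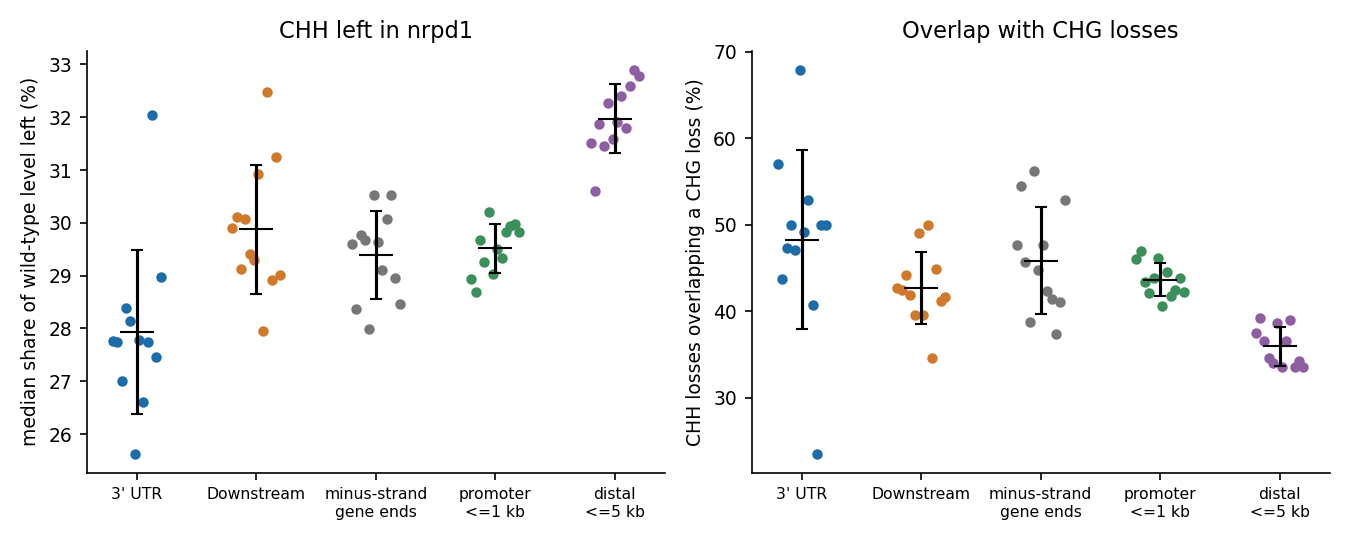
Median share of the wild-type CHH level left in nrpd1 (left) and percentage of losses overlapping a CHG loss (right), 1 point per chromosome, with mean and SD over 12 chromosomes; the vertical axes do not start at 0. Distal losses sit between 30.6% and 32.9% left, while 3' UTR losses lie between 25.6% and 32.0%.

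The losses at minus-strand ends had levels close to those of the members. Losses starting 1 to 300 bp past minus-strand genes and annotated as distal went from a median of 24.4% to 7.09%, with 29.9% left, and the Downstream losses past plus-strand genes from 24.5% to 7.16%, with 29.6% left. Losses across minus-strand ends annotated as exonic went from 23.4% to 6.40%, with 28.4% left, and the 3' UTR losses across plus-strand ends from 23.1% to 6.43%, with 27.7% left. Between all members and all minus-strand ends, the share left differed by a mean of -0.258 points (SD over chromosomes 1.18, members lower on 7 of 12), and the CHG overlap of 44.8% stood beside 46.2% (43.9 to 48.5). Adding the minus-strand ends gave 3835 regions with a median fall of 16.2 points and 29.1% left.

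The gene that the table assigns to a member was often not the gene matched to it here. For 390 of the 1978 members with a matched gene (19.7%) the assigned gene was a different one from the gene or genes matched. For 259 members (12.7%) the region lay upstream of the assigned transcription start. At 86 members genes on both strands were found. Of these, 71 were Downstream losses past the ends of both genes, and 15 were 3' UTR losses that overlapped both. The genes matched to members numbered 1960, of which 1942 had 1 member and 18 had 2. Of these genes, 1418 (72.3%, 70.3 to 74.3) also had a CHH loss annotated to their promoter, against 68.3% of all named genes, and 813 (41.5%) had a promoter CHG loss, against 36.5% of all named genes. Genes are named because a listed region was assigned to them, so the shares over all named genes are selected too. With the assigned genes in place of the matched ones, 69.8% had a promoter CHH loss. Genes with a loss at a minus-strand end had a promoter CHH loss in 72.8% of cases (70.7 to 74.8).

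Facing gene ends were about as frequent at members as among plus-strand genes in general. Losses with a promoter annotation are not members, and the effect of this on the comparison was not tested. The next named gene past the 3' end was convergent, that is on the opposite strand with its own end facing, for 887 of 1959 genes with a member (45.3%, 43.1 to 47.5) and for 45.4% of plus-strand named genes. In such convergent pairs the median gap was 3904 bp and the loss covered 16.3% of it. At gene ends followed by a gene in the same orientation the gap was 7244.5 bp and 9.39% of it was covered. Over all plus-strand named genes the median gaps were 3682 bp and 6200.5 bp, so convergent gaps were the shorter there too. The median width of the members was 646 bp in convergent and 698.5 bp in same-orientation gaps. CHH methylation went from 23.4% to 6.64% in the convergent and from 24.6% to 7.03% in the same-orientation gaps, with 28.9% and 29.1% left. A CG loss overlapped 4.03% of members in convergent and 6.46% in same-orientation gaps, and a CHG loss 46.0% and 44.0%. Only 11 members reached the next named gene, all of them 3' UTR losses between convergent genes. Because losses with a promoter annotation lie outside the members, this count follows in part from the annotation, and nothing is read from it.

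The members with the greatest falls started from some of the highest levels. Among 3' UTR losses the greatest fall was on chromosome 9 (SL4.0 coordinates 732237 to 733184), from 49.9% to 11.4% over 198 cytosines. It began 47 bp inside the end of Solyc09g007060.2 and ran 900 bp past it, with no listed CHG or CG loss beneath it. The next 4 in this class fell by between 33.9 and 36.3 points. They lay on chromosome 8 at 63321732 to 63322516, with 42.2% in wild type and 5.87% in nrpd1, on chromosome 12 at 63235509 to 63236679 and at 47159137 to 47159981, and on chromosome 8 at 53390504 to 53391543. All 5 of these regions crossed the end of a gene, and 3 of them overlapped a CHG loss.

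Among Downstream losses the greatest fall was also on chromosome 9 (968491 to 969253), from 45.9% to 6.86% over 150 cytosines, 121 bp past the end of Solyc09g007340.4. A CHG loss covered nearly the same bases there (968492 to 969235) and went from 62.9% to 26.5%. The region with the highest wild-type level of all members came second, on chromosome 4 at 60658097 to 60658804, with 53.8% in wild type and 15.0% in nrpd1 and no CHG or CG loss listed. On chromosome 3, at 60421762 to 60423412, CHH fell from 44.9% to 7.91% and the CHG loss inside it from 92.7% to 25.4%. The other two, on chromosome 3 at 60853459 to 60854446 and on chromosome 5 at 2707818 to 2708694, fell by 34.7 and 34.4 points, and the former also overlapped a CG loss from 83.6% to 62.6%. The files pair no gene identifier with a name or a function, so no role can be given for the genes at these ends.

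The members with the largest summed fall over the 3 contexts were all Downstream losses. In the first, on chromosome 3 at 3374665 to 3375636, CHH went from 27.1% to 7.88%, CHG from 53.2% to 18.3% and CG from 73.4% to 12.6%. The CG loss there (3375598 to 3375877) overlapped the outer edge of the CHH loss and held 7 cytosines. In the second, on chromosome 1 at 82989945 to 82991134, CHH went from 33.4% to 8.60%, CHG from 66.8% to 22.7% over 46 cytosines and CG from 76.6% to 36.6% over 41. The other 3 lay on chromosome 2 at 51170650 to 51172207, on chromosome 1 at 74193647 to 74195813 and on chromosome 3 at 2647775 to 2650109, and the 5 regions kept between 20.4% and 30.2% of their wild-type CHH level.

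The 4 widest members kept between 27.1% and 44.9% of their wild-type level. The widest of all, on chromosome 7 at 57345637 to 57351244, spanned 5608 bp and went from 33.4% to 11.5%. It held 252 cytosines, or 4.49 per 100 bp, against a median of 22.7 over the members. The next 3 widest, from 4869 to 5293 bp, held 978 to 1200 cytosines and kept 27.1%, 33.0% and 44.9% of their wild-type level. The highest level left in nrpd1 was 32.9%, from 45.2% in wild type, in a Downstream region of 121 bp on chromosome 4 at 56522223 to 56522343. The next 2 by this measure, of 256 and 461 bp, lay on chromosomes 9 and 3 and went from 42.6% to 30.9% and from 43.0% to 27.1%, and the last of 4, of 871 bp on chromosome 12, from 46.0% to 26.2%. None of these 4 overlapped a CHG or CG loss.

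Of the 18 genes with 2 members, the first 4 by position lay on chromosomes 1 and 2. At the first, on chromosome 1, a loss within the gene (4832941 to 4833746) went from 25.5% to 5.76% and one across its end (4833799 to 4834899) from 21.9% to 8.97%, and a CHG loss lay beneath each. At the second, a 3' UTR loss at 37870733 to 37871269 went from 18.9% to 5.37%, and the Downstream loss after it, at 37871677 to 37872720, from 28.3% to 8.69%. At the third, losses at 38616011 to 38616442 and at 38616530 to 38617687 went from 13.8% to 3.62% and from 27.7% to 7.11%. The fourth, on chromosome 2, kept the most, with 39.4% going to 22.1% (23583317 to 23583717) and 29.8% to 17.0% (23584089 to 23584512), and neither overlapped a CHG or CG loss.

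The members were spread over all 12 chromosomes, from 141 on chromosome 8 to 236 on chromosome 1, and none was on unplaced sequence. They made up between 2.39% of the CHH losses on chromosome 8 and 3.28% on chromosome 12. Of the members, 77.0% lay in the outer 20% at either end of their chromosome, compared with 68.8% of all CHH losses on the chromosomes. This was shared by other losses near genes, with 79.0% of promoter losses within 1 kb, 82.8% of exonic losses and 73.7% of distal losses within 5 kb. By chromosome, the median share left lay between 27.5% (chromosome 8) and 30.01% (chromosome 7).

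In the last 50 bp of the 300 bp window, 212 Downstream losses went from 24.6% to 7.24%, with 29.4% left, and 371 distal losses beginning in the next 50 bp, at genes on either strand, from 25.6% to 8.30%, with 31.6% left. The change closest to 0 among members was -10.0015 points, and 85 members fell by less than 10.5 points. On the other side of the direction limit, 14 CHH regions at 3' ends were higher in nrpd1, by 10.1 to 15.3 points, with a median of 12.3% in wild type and 23.3% in nrpd1, so that 99.3% of listed CHH regions at 3' ends were losses, against 95.8% of all listed CHH regions. The direction chose the members, and nothing is read from that share.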

How the data were processed

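Bisulfite sequencing libraries of 3 wild-type and 3 nrpd1 samples were summarised by the authors into 3 tables of differentially methylated regions, for CG, CHG and CHH. Trim Galore 0.6.7 and Bismark 0.24.0 are named in the submitters' processing notes. For the region caller, its thresholds and the annotation tool, none of the sources used here gives a name, and the build, SL4.0, was read from the chromosome names. The authors gave methylation as a fraction per region and genotype, per the file headers, printed here as a percent. The authors also deposited, per the file headers, the count of cytosines of the context in each region. The authors' deposited region statistic, a score, was used here to select the upper 50% of regions. The deposited difference is nrpd1 minus wild type. Incomplete conversion would raise CHH levels, and its rate is unknown.

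From these tables, medians, overlaps of at least 1 bp, Wilson 95% intervals and spreads over 12 chromosomes were computed (Python 3.11.15, pandas 2.3.3, SciPy 1.17.1), and the overlap and gene-matching steps were checked on simulated data. The share left is the nrpd1 level as a percentage of the wild-type level. The gene at a 3' end was the named gene overlapping a 3' UTR region, or ending up to 300 bp before a Downstream region, and where several were found a plus-strand gene was taken first and then the nearest. Members and comparisons were chosen with earlier results of these data known, and the comparison of strands after these values were seen. Regions named were those with the 5 greatest falls per class and the 4 highest nrpd1 levels (each with at least 20 cytosines), the 4 widest, the 5 greatest summed falls over 3 contexts and the 4 genes with most members, ties by position. Lists of genes by function could not be applied, because the gene table at hand, of another assembly, holds none of the identifiers, and sequences are not shown, because no SL4.0 genome was used here. Alternatives were stricter differences, region statistics and cytosine numbers, other overlap limits, matching on level, width and position, and weighting by cytosines.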

Additional observations from a re-analysis of the deposited data

How the results depend on the processing

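Of 90 values recomputed under alternatives, 72 stayed within the spread given for them, 15 moved and 3 changed direction. Leaving out unplaced sequence was among the alternatives. No member lies there, so values from members alone could not change, and these count among the 72. Leaving out regions with a fall under 20 points gave, by its own construction, a greater median fall, with a change of -23.1 points. The share left was then 26.9%, the CHG overlap 63.96% and the CG overlap 7.45%, and the cause of these shifts was not tested. A promoter loss was found for 31.6% of genes, since promoter losses were thinned too. Relative to distal losses the share left was then -0.596 points. The difference in CHG overlap between 3' UTR and Downstream losses became -0.0872 points, and the cause was not tested. In the upper 50% by region statistic the median change was -19.3 points, with 27.8% left, a CHG overlap of 55.3%, a CG overlap of 6.83% and 48.6% of genes with a promoter loss, and the CHG overlap relative to promoters turned to -0.358 points, the cause of which was not tested. Matched on the wild-type level, the share left relative to promoters turned to 0.0350 points, and the cause was not tested. Requiring an overlap of 50% of the width gave 18.0% for CHG and 0.393% for CG. Weighted by cytosines the median change was -18.4 points. With the assigned gene in place of the gene at the 3' end, an alternative chosen after seeing the data like those on strand, 69.8% of genes had a promoter loss. The lower share left and the more frequent CHG loss at 3' ends than in distal losses kept their direction under every alternative run, between -3.02 and -0.596 points and between 4.42 and 9.83 points. No paired analysis was possible because the tables give 1 mean per genotype and no value per library, and for the same reason no library could be left out. Read depth limits the precision of each level to an unknown extent.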

Other observations

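The split by strand in the annotation was also present in the tables for the other contexts. Past the ends of plus-strand genes, 608 CHG losses were annotated as Downstream and 0 as distal intergenic, and past the ends of minus-strand genes 41 and 557. For CG losses the numbers were 117 and 0 at plus-strand and 3 and 116 at minus-strand ends. All losses in this window together numbered 785 at plus-strand and 792 at minus-strand ends in CHG, and 140 and 164 in CG.

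CHG and CG losses beneath the losses at minus-strand ends had levels near those beneath members. The CHG losses went from a median of 66.1% to 31.6%, with 50.1% left, and the CG losses from 80.8% to 51.2%, with 65.98% left over 94 overlaps. On chromosome 6, 67.9% of the 53 3' UTR losses overlapped a CHG loss, the highest share of any chromosome in that class.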
